A study of Mus musculus with 12 samples.

Results

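The genes described here were those that responded to retinoic acid (RA) in the same direction in wild-type and in Faf2 knockout NE-4C cells. A gene was kept when the 3 RA libraries lay all above, or all below, the 3 untreated libraries in WT and again, in the same direction, in KO. Of 16502 genes tested, among 57010 in the table, 1731 met this rule. Of these, 748 lay higher after RA (4.53% of the genes tested) and 983 lower (5.96%). The mean RA effect over the 2 genotypes also passed edgeR's quasi-likelihood test for 985 of the 1731, at a Benjamini-Hochberg adjusted p under 0.05. These were 575 genes with higher levels (3.48%) and 410 with lower levels (2.48%) after RA. The rule and the test read the same libraries and the same contrast, so the counts describe which genes moved and the overlap of rule and test is not evidence of its own.

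NE-4C is a line of neural progenitors from the brain of mouse embryos at embryonic day 9, immortalized by loss of p53. The 12 libraries of mRNA-Seq fell into 4 groups of 3 independent passages. WT and KO were untreated cells, collected at 0 days. WT + RA and KO + RA were cells given all-trans RA at 1 µM for 24 h, returned to medium without RA and collected 3 days after the start of induction. KO cells carried a CRISPR/Cas9 deletion of exon 4 of Faf2, which encodes an adaptor of protein degradation at the endoplasmic reticulum (ER) and were raised from picked colonies. The study describes a Faf2 knockout line, and the colony behind each KO library is not given in the sources used here. Treatment differed from control in RA, in time in culture and in day of collection, so "RA effect" below names all 3 together, and they cannot be told apart.

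RA is a derivative of vitamin A that binds nuclear receptors (RAR, paired with RXR) on short DNA repeats called retinoic acid response elements. Bound receptors switch on nearby genes, among them the gene for the enzyme that breaks RA down, which closes a feedback loop. In the early neural tube RA sets posterior identity through the Hox genes, favours neuronal differentiation over self-renewal, and opposes the FGF and Nodal signals of the epiblast. It is the standard agent for making neurons from NE-4C cells.

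Levels are given as CPM, the count relative to the library total after scaling with TMM factors, which edgeR computes so that most genes do not differ between libraries. The deposited counts are labelled as scaled, which points to a correction for gene length, but the setting used is not given in the sources used here, so levels of different genes are compared below only with this limit. Library totals ran from 17370069 to 30738717 counts. A count of 3 in a library, the floor used below, was 0.0838 to 0.297 CPM. Faf2, the targeted gene, was at 50.01, 38.8 and 35.98 CPM in WT, 35.1, 37.9 and 49.1 CPM in WT + RA, 21.03, 21.7 and 25.4 CPM in KO and 36.1, 34.3 and 18.7 CPM in KO + RA, and the RA effect on it was 0.18 ± 0.19 (log2 fold change ± SE, adjusted p = 0.57). Untreated KO libraries lay below untreated WT libraries. A whole-gene count does not show whether exon 4 is present.

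One library stood apart. KO + RA replicate 3 had a TMM factor of 0.394 where the others had 0.872 to 1.28, and 23.5% of its counts came from mitochondrial genes against 9.10% to 17.7% elsewhere. Its genes differed from the mean of the other KO + RA libraries by a median of 0.859 on the log2(CPM + 1) scale, while this median was 0.139 to 0.489 in the other 11 libraries. Without it the common dispersion, edgeR's measure of variance between replicates, dropped from 0.215 to 0.116. Genes apart in the same direction in both genotypes then numbered 1324 higher (7.64% of 17327 tested) and 1314 lower (7.58%). The shared effect passed the test for 2059 genes higher (11.9%) and 2053 lower (11.8%), against 895 (5.42%) and 515 (3.12%) with all 12 libraries. Called and apart were 1170 higher (6.75%) and 1180 lower (6.81%). List counts without this library, given below, are to be read beside these 2 shares. All 985 genes of the 12-library fit were still called in the same direction without this library, and 981 of them still met the rule. In WT, ribosomal protein genes made up 17.9% to 20.7% of counts before and 23.7% to 25.7% after RA, and mitochondrial genes 10.6% to 13.6% and 13.3% to 17.7%. In KO, ribosomal protein genes made up 16.9% to 19.98% before and 18.5%, 18.8% and 28.0% after RA, so that KO + RA replicates 1 and 2 lay inside the untreated range. The part of these shares in the results was not tested.

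**Figure D1:**
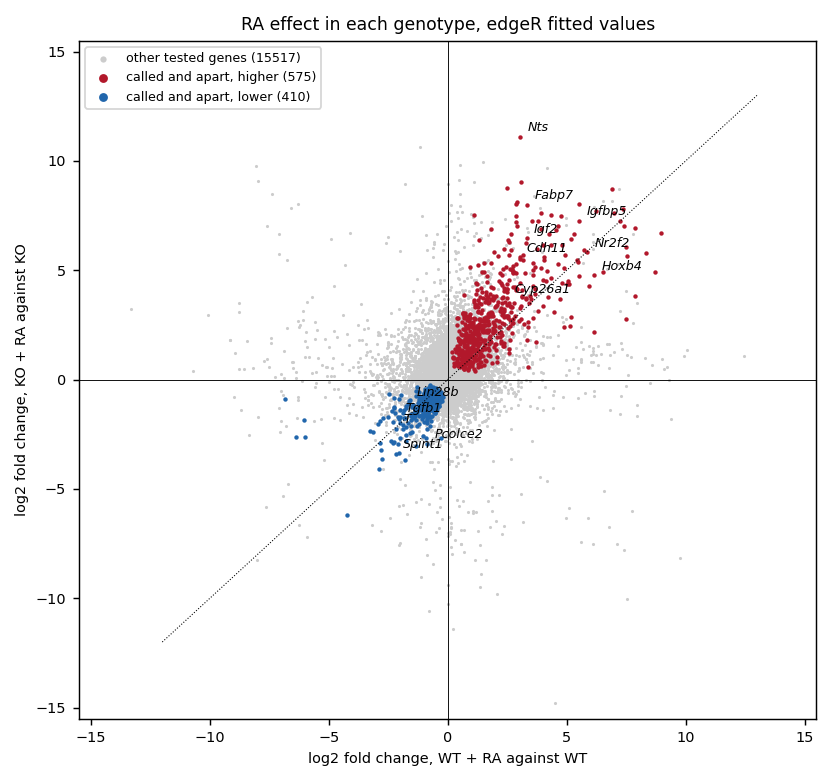
Fitted log2 fold change of each of the 16502 tested genes in WT (horizontal axis) and in KO (vertical axis), from edgeR. Red points are the 575 genes called and apart that were higher after RA, blue points the 410 that were lower, grey points all others, and the dotted line marks equal fold changes. Most red points lie above the line: the fitted effect was larger in KO for 457 of the 575. The same count over all tested genes was not made.

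The median shared log2 fold change was 1.96 over the 575 higher genes and −0.83 over the 410 lower ones, beside 0.06 over all genes tested. More than 2-fold changes were found for 486 of the higher and 143 of the lower genes, and more than 8-fold changes for 151 and 8. Mean levels over all libraries had a median of 2.99 CPM in the higher genes, 22.7 CPM in the lower genes and 8.04 CPM in all genes, which depend on gene length if the counts were not corrected for it. In 41 of the higher genes no untreated library held more than 3 counts, and for genes at this floor levels are given in place of a fold change. Protein-coding genes made up 90.4% of the higher, 96.1% of the lower and 81.2% of all tested genes with an annotation. At the edge of the test, Knl1 (adjusted p = 0.0499) and Pcdhb21 (0.0499) were the last genes inside, and Acot7 (0.0501) and Wdr76 (0.0504) the first outside. In CPM without TMM factors 323 genes were apart in both genotypes on the higher and 1505 on the lower side, in place of 748 and 983, and the median of all genes was −0.21 in place of 0.06. The edgeR fit without these factors, added after seeing the data, called 284 of the 985 genes, with no change of sign. The 746 genes that met the rule but missed the test were 173 higher and 573 lower ones. A list median given below is that of the shared effect, a mean over both genotypes, whose own medians can differ in size or in sign.

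The feedback genes of RA itself rose in both genotypes. Cyp26a1 encodes the enzyme that degrades RA (ENSMUSG00000024987, GRCm39 chr19:37686241-37689984, plus strand). Its level was 0.387, 0.296 and 0.366 CPM in WT and 1.49, 2.91 and 1.58 CPM in WT + RA. In KO it was 0.879, 1.27 and 0.670 CPM and in KO + RA 9.21, 13.3 and 14.9 CPM. The groups did not overlap in either genotype, and Cyp26a1 rose by 3.11 ± 0.27 on the log2 scale (SE, adjusted p = 0.000164). Rarb, the RA receptor beta (ENSMUSG00000017491, GRCm39 chr14:5650540-6041094, plus strand), went from 0.599, 0.407 and 1.04 CPM to 1.68, 3.98 and 2.29 CPM in WT and from 1.67, 1.10 and 1.40 CPM to 2.62, 4.19 and 5.05 CPM in KO. Its shared effect of 1.73 ± 0.33 (adjusted p = 0.00975) was smaller than that of Cyp26a1, and the untreated KO libraries all lay above the untreated WT libraries. The gene is annotated on the plus strand in GRCm39, while the GRCm38.p6 promoter given next is annotated on the minus strand.

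The promoters of both genes carried a direct repeat of the kind that RAR and RXR bind. Promoters of 250 bases before to 50 bases after each RefSeq start (GRCm38.p6) were searched on both strands for pairs of half-sites in the same direction, each being AGGTCA (the consensus), its common form AGTTCA, the form GGGTCA or the form GGTTCA, and 1, 2 or 5 bases apart. The 150 bases before the start are shown for the 2 higher genes with a 5-base spacing, 5′ to 3′ on the strand of the gene, with the repeat in capitals. The windows are chr19:37697658-37697807 (plus strand) and chr14:16575477-16575626 (minus strand).
Cyp26a1: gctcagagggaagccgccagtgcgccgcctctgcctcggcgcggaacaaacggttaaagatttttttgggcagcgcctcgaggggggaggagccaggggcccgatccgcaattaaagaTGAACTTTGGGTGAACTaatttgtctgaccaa
Rarb: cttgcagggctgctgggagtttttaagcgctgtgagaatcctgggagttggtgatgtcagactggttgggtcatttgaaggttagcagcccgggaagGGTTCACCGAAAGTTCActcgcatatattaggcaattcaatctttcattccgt
The Cyp26a1 repeat reads on the opposite strand as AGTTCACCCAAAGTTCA, from base −32 to −16 counted from the start, and the Rarb repeat spans base −53 to −37. Such repeats were rare throughout. They stood in 4 of 543 promoters of the higher genes (0.737%), 3 of 398 of the lower genes (0.754%) 50 of 14232 of all tested genes (0.351%) and 193 of all 32851 promoters given (0.588%). With the 5-base spacing alone the numbers were 2 (0.368%), 1 (0.251%), 6 (0.0422%) and 32 (0.0974%). The other higher genes with a repeat were Casd1 and Slc45a3 and the lower ones Blvrb, Slc7a7 and Tmem248. A match of letters is not a bound site, and a promoter without a match only lacks these letters in this window.

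Genes for uptake, binding and synthesis of retinoids rose as well. Crabp1, a cytoplasmic RA-binding protein, went from 0.0704, 0.776 and 1.22 CPM to 7.07, 9.55 and 8.36 CPM in WT and from 1.05, 0.326 and 1.12 CPM to 54.6, 34.5 and 11.4 CPM in KO (4.45 ± 0.57, adjusted p = 0.00146). Stra6, the membrane receptor that takes up vitamin A, was at 0.563, 0.222 and 1.495 CPM in WT and 3.65, 12.03 and 4.87 CPM in WT + RA, and at 0.264, 0.148 and 0.279 CPM in KO and 15.4, 16.4 and 4.26 CPM in KO + RA (4.41 ± 0.55, adjusted p = 0.00128). Aldh1a2, which makes RA from retinaldehyde, stayed low but was apart in both genotypes, at 0.0838 to 0.407 CPM before and 0.669 to 3.15 CPM after RA (2.70 ± 0.54, adjusted p = 0.0131). Of the 15 receptors and binding proteins tested, 3 were called and apart (Crabp1, Rarb and Stra6), none was lower, and the median of the list was 0.10, which turned to −0.08 in CPM without TMM factors. Of 4 synthesis genes tested Aldh1a2 was the member called and apart, and of 4 catabolism and storage genes Cyp26a1. Crabp2 and Rdh10 were called higher but their groups overlapped in WT.

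**Figure D2:**
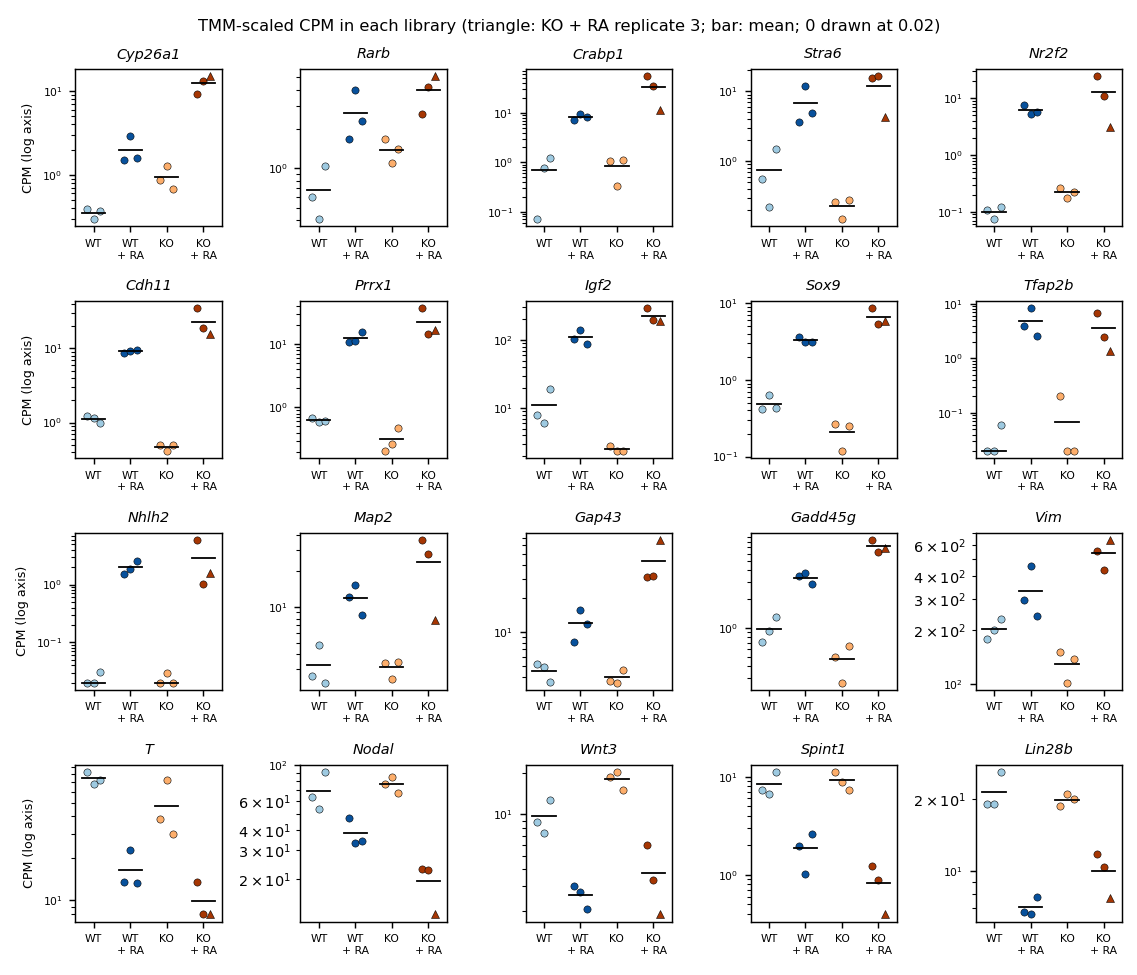
TMM-scaled CPM (log axis) of 20 named genes in each of the 12 libraries, by group, with a bar at the group mean. A triangle marks KO + RA replicate 3 and a value of 0 is drawn at 0.02 CPM. In each panel the RA points of a genotype lie all above or all below its untreated points, as the rule requires.

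Transcription factors known to respond to RA had some of the larger effects. Nr2f2 and Nr2f1 encode the orphan nuclear receptors COUP-TFII and COUP-TFI. Nr2f2 was at 0.106, 0.0739 and 0.122 CPM in WT and 7.55, 5.33 and 5.78 CPM in WT + RA, and at 0.264, 0.178 and 0.223 CPM in KO and 24.2, 10.9 and 3.17 CPM in KO + RA (5.85 ± 0.49, adjusted p = 0.000134). Nr2f1 rose by 5.99 ± 0.71 (adjusted p = 0.000907). The fitted effects of Nr2f2 in WT and KO, 5.87 and 5.82, were nearly equal. Zfp503, a repressor of the NET family, rose by 5.01 ± 0.46 (adjusted p = 0.000203) and went from at most 0.732 CPM to at least 8.84 CPM in every RA library. Meis1, a TALE cofactor of Hox proteins, was already present, at 10.2, 17.1 and 3.11 CPM in WT and 3.78, 2.37 and 3.02 CPM in KO, and reached 23.4, 29.8 and 25.7 CPM and 56.2, 30.8 and 38.2 CPM (2.57 ± 0.35, adjusted p = 0.00212). Its relative Meis2 (1.53 ± 0.42, adjusted p = 0.0467) and the antiproliferative gene Btg2 (0.90 ± 0.21, adjusted p = 0.0243) changed less. In all, 6 of 21 tested RA response genes were called and apart, higher each time, with a list median of 0.97 (0.90 with genes at the floor set to their bound). Without KO + RA replicate 3 the counts were 9 and 0 of 22.

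Of 10 tested 3′ Hox genes (groups 1 to 4), 6 were called and apart, higher after RA in both genotypes. Hox genes lie in 4 clusters, and their 3′ members, with low numbers, are expressed in the hindbrain and are the first to answer RA. Hoxb2 went from 0.176, 0.111 and 0.0610 CPM to 3.89, 7.76 and 3.77 CPM in WT and from 0, 0.178 and 0.0279 CPM to 4.92, 1.70 and 3.17 CPM in KO (5.46 ± 0.62, adjusted p = 0.000762). Hoxa2 followed the same course, from 0.176, 0 and 0.0916 CPM to 2.88, 4.27 and 2.48 CPM in WT and from 0, 0.533 and 0.140 CPM to 5.69, 3.03 and 5.45 CPM in KO (4.73 ± 0.75, adjusted p = 0.00396). Hoxb3 reached 2.12, 2.04 and 2.34 CPM in WT + RA and 1.17, 0.443 and 0.595 CPM in KO + RA from at most 4 counts in any untreated library (adjusted p = 0.00171). Hoxb4 had at most 1 count in each untreated library and 1.15, 1.02 and 1.19 CPM in WT + RA and 0.451, 0.238 and 0.496 CPM in KO + RA (adjusted p = 0.00181).

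Hoxa3 (adjusted p = 0.00472), Hoxa4 (0.0132) and Hoxa5 (0.00866) rose too. In untreated KO they were at 0.0879, 1.13 and 0.726 CPM, 0, 0.237 and 0.168 CPM and 0.0586, 0.237 and 0.0279 CPM, and in untreated WT at or under the floor in each library. No tested member of groups 1 to 4 was called lower, and the median of these groups was 4.19 (2.98 with genes at the floor set to their bound). Of groups 5 to 9, Hoxa5 was the one of 4 tested to meet both conditions, and without KO + RA replicate 3 the higher and lower counts were 2 and 0 of 9. Hoxc4 met the rule but missed the test (0.117 to 0.488 CPM before and 0.613 to 1.503 CPM after RA, adjusted p = 0.0534). Hoxd1 and Hoxd4 did not pass, with log2 effects of −0.16 ± 0.32 and 0.02 ± 0.27.

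**Figure D3:**
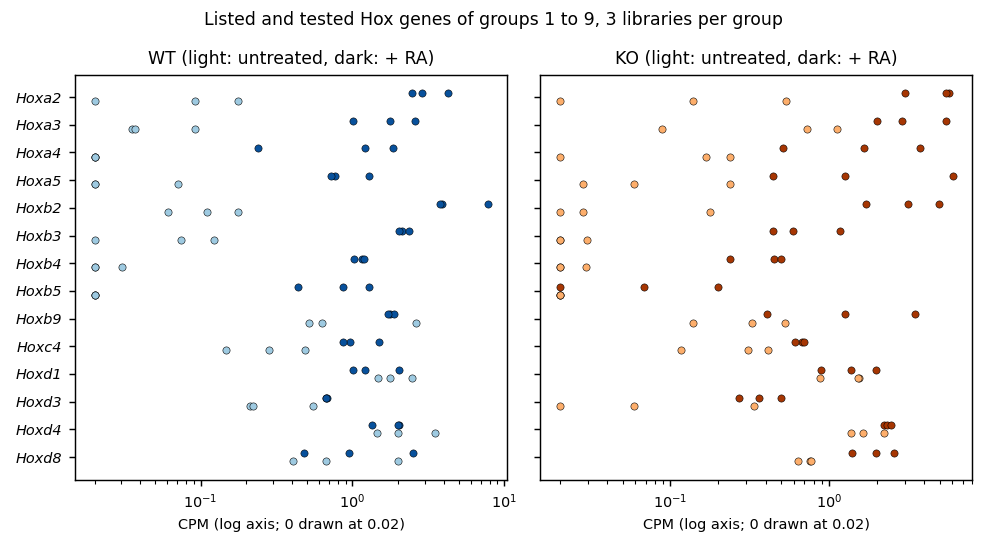
CPM (log axis) of the 14 tested Hox genes of groups 1 to 9 in the lists in WT (left) and KO (right), with 1 point per library, light for untreated and dark for RA, and 0 drawn at 0.02 CPM. The genes of cluster a from Hoxa2 to Hoxa5 and of cluster b from Hoxb2 to Hoxb4 are apart on both sides, while Hoxd1 and Hoxd4 overlap on both sides and Hoxd8 overlaps in WT.

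Some regional factors of the neural tube rose too. Irx1 went from 1.51, 1.70 and 1.25 CPM to 8.85, 10.6 and 6.93 CPM in WT and from 0.146, 0.296 and 0.530 CPM to 9.39, 10.1 and 3.96 CPM in KO (3.57 ± 0.34, adjusted p = 0.000253). Irx3 (3.21 ± 0.49, adjusted p = 0.00337) and Irx5 (1.80 ± 0.37, adjusted p = 0.0156), which like Irx1 are homeobox genes of hindbrain and spinal cord patterning, also rose. Pax3, a dorsal neural tube factor, was at 0.0558 to 0.183 CPM before and 0.198 to 2.04 CPM after RA (adjusted p = 0.00587), and in KO + RA replicate 3 it stayed at 0.198 CPM, under that library's floor of 0.297 CPM. Of 11 tested hindbrain and ventral factors 4 were called and apart, with a median of 1.80 (0.33 in WT and 2.57 in KO). Of 11 tested forebrain and midbrain factors 1 was, Fezf2, which was under 0.1 CPM in every untreated library and at 0.433, 0.436 and 0.0955 CPM in WT + RA and 1.58, 0.886 and 0.0991 CPM in KO + RA (adjusted p = 0.0333). In replicate 3 of WT + RA and of KO + RA, Fezf2 stayed under the library's floor, 0.143 and 0.297 CPM. These 2 libraries thus show no rise above the floor. The call of Fezf2 held in 7 of 18 alternative settings. Otx2, which marks forebrain and midbrain, was at 163, 163 and 120.4 CPM in WT and 135, 106 and 127 CPM in WT + RA, and at 132, 162 and 161 CPM in KO and 82.0, 104 and 19.4 CPM in KO + RA, with overlap in WT (−0.71 ± 0.32, adjusted p = 0.186).

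Part of the neurogenic cascade rose from near 0. Proneural factors commit progenitors to the neuronal fate, and factors such as Nhlh, Ebf, Myt1 and St18 act in the newborn neuron. Nhlh2 had at most 1 count per untreated library and 1.54, 1.89 and 2.58 CPM in WT + RA and 5.91, 1.02 and 1.59 CPM in KO + RA (adjusted p = 0.000529). Its relative Nhlh1 (0 to 0.0370 CPM before and 0.288 to 1.76 CPM after RA, adjusted p = 0.00373) and St18 (0 to 0.0586 CPM before and 0.145 to 1.99 CPM after RA, adjusted p = 0.00722) followed. Myt1 had 0 counts in all 6 untreated libraries and was at 0.192, 0.436 and 0.430 CPM in WT + RA and 1.13, 0.579 and 1.29 CPM in KO + RA, which is at least 3.18-fold higher in WT and at least 11.2-fold higher in KO than a floor of 3 counts per library (adjusted p = 0.00353).

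Ebf2 (0.0279 to 0.488 CPM before and 0.396 to 5.96 CPM after RA, adjusted p = 0.00271) and Neurog2, the proneural factor of dorsal progenitors (0 to 0.0916 CPM before and 0.240 to 1.64 CPM after RA, adjusted p = 0.00845), rose, and with Ebf3 they brought the list to 7 of 17 tested, with none lower and a median of 2.42 (2.42 at the bounds). Insm1, Lhx9 and Scrt1 were called higher but overlapped. Without KO + RA replicate 3 the higher and lower counts were 12 and 1 of 21. The 7 factors stayed under 6 CPM in every library, low levels in a bulk sample, where few cells with much RNA and many cells with little cannot be told apart.

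Structural genes of neurons went both ways. Gap43, a growth cone protein, went from 5.14, 4.84 and 3.54 CPM to 8.17, 15.8 and 11.8 CPM in WT and from 3.66, 3.52 and 4.58 CPM to 30.7, 31.9 and 66.6 CPM in KO (2.43 ± 0.25, adjusted p = 0.000509). Map2, of dendritic microtubules (2.42 ± 0.36, adjusted p = 0.00309), the adhesion molecule Ncam1 (1.75 ± 0.27, adjusted p = 0.00356), Dpysl3 (2.03 ± 0.35, adjusted p = 0.0066) and Gad2, an enzyme of GABA synthesis (2.93 ± 0.67, adjusted p = 0.0221), rose. Ina, a neurofilament subunit, fell from 56.6, 37.2 and 40.3 CPM to 18.6, 17.4 and 19.7 CPM in WT and from 38.5, 29.5 and 35.3 CPM to 20.4, 21.7 and 6.54 CPM in KO (−1.17 ± 0.26, adjusted p = 0.0206). Rbfox3, the NeuN antigen of mature neurons, fell as well (−2.25 ± 0.55, adjusted p = 0.0303). Thus of 29 tested genes 5 were higher and 2 lower, with a median of 0.80. Tubb3, the early neuronal tubulin, was called (0.76 ± 0.19, adjusted p = 0.0332) but its WT libraries overlapped, at 25.1, 22.03 and 30.98 CPM before and 28.3, 31.9 and 33.7 CPM after RA.

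Of 26 tested progenitor genes 8 were called and apart, all higher, with a median of 0.64. Once KO + RA replicate 3 was left out, the higher and lower counts were 9 and 1 of 26, the lower one being Id1, an inhibitor of bHLH factors (−1.13). Sox1, an early neuroectoderm factor, went from 0.599, 0.813 and 0.153 CPM to 2.21, 2.96 and 4.25 CPM in WT and from 0.234, 0.118 and 0.307 CPM to 17.9, 13.9 and 3.07 CPM in KO (4.15 ± 0.52, adjusted p = 0.00134). The intermediate filament Vim rose from 178, 202 and 231 CPM to 297, 456 and 239.8 CPM in WT and from 151, 102 and 138 CPM to 553, 435 and 639 CPM in KO (1.38 ± 0.21, adjusted p = 0.00327). Fabp7, the brain lipid-binding protein of radial glia, was at 40.6, 15.6 and 155.1 CPM in KO + RA, where replicate 3 was far above the others, and its effect dropped from 5.67 ± 0.62 (adjusted p = 0.000563) to 5.01 without that library. Pou3f2 (adjusted p = 0.00804), Pou3f3 (0.00946), Sox21 (0.0242), Hes6 (0.0268) and Id2 (0.0225) completed the group.

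Of the progenitor markers Sox2, Pax6, Cdh2, Otx2 and Nes, all detected in every library, none met the rule. Sox2 was at 42.9, 44.3 and 23.7 CPM in WT and 93.9, 65.0 and 69.6 CPM in WT + RA, but overlapped in KO, at 63.5, 57.7 and 60.9 CPM and 85.5, 101 and 26.1 CPM (0.63 ± 0.30, adjusted p = 0.199). Pax6 was at 9.30, 8.80 and 4.12 CPM and 11.8, 14.6 and 14.9 CPM in WT and at 0.791, 1.10 and 2.01 CPM and 4.33, 1.84 and 2.78 CPM in KO, overlapping in KO (1.04 ± 0.31, adjusted p = 0.0575). Cdh2, N-cadherin, was called (0.66 ± 0.16, adjusted p = 0.0274) with overlap in WT.

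Genes of radial glia and of glial competence rose with them. Sox9, needed for the switch to gliogenesis, went from 0.423, 0.628 and 0.427 CPM to 3.65, 3.15 and 3.11 CPM in WT and from 0.264, 0.118 and 0.251 CPM to 8.67, 5.38 and 5.85 CPM in KO (3.84 ± 0.28, adjusted p = 5.47e-05). The nuclear factor I genes Nfix (3.32 ± 0.39, adjusted p = 0.000907), Nfia (2.17 ± 0.39, adjusted p = 0.00722) and Nfib were higher too, and Sparcl1, a secreted protein of astrocytes and vessels, rose from 0.845, 1.70 and 0.305 CPM to 27.0, 28.5 and 22.98 CPM in WT and from 0.557, 1.27 and 1.42 CPM to 49.9, 81.1 and 106 CPM in KO (5.48 ± 0.42, adjusted p = 6.95e-05). Of 15 glial genes tested 6 were called and apart, and Gfap, Aqp4 and S100b did not pass the filter on low counts. None of 5 tested oligodendrocyte genes met both conditions. Once KO + RA replicate 3 was left out, the higher and lower counts were 6 and 1 of 15 glial and 1 and 0 of 6 oligodendrocyte genes.

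Most of the 10 higher genes with the smallest p-values were genes of matrix, mesenchyme and growth factors. Cdh11, a cadherin of mesenchyme and neural crest (ENSMUSG00000031673, GRCm39 chr8:103358726-103512687, minus strand), was at 1.23, 1.15 and 0.977 CPM in WT and 8.75, 9.07 and 9.46 CPM in WT + RA, and at 0.498, 0.415 and 0.503 CPM in KO and 34.7, 18.5 and 15.7 CPM in KO + RA (4.31 ± 0.24, adjusted p = 1.58e-05). Prrx1, a homeobox factor of mesenchyme, went from 0.669, 0.591 and 0.610 CPM to 10.7, 11.3 and 15.9 CPM in WT and from 0.205, 0.267 and 0.475 CPM to 37.1, 14.5 and 16.8 CPM in KO (5.24 ± 0.32, adjusted p = 3.30e-05), and its relative Prrx2 rose by 2.67 ± 0.28 (adjusted p = 0.000509). For both factors every RA library lay above every untreated library of its genotype.

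Fibrillar collagens moved in the same way. Col3a1 went from 0.599, 0.739 and 0.488 CPM to 20.3, 27.1 and 18.9 CPM in WT and from 0.352, 0.652 and 0.419 CPM to 71.7, 35.3 and 15.9 CPM in KO (5.80 ± 0.39, adjusted p = 4.25e-05). Col1a2 rose by 4.28 ± 0.30 (adjusted p = 4.97e-05) and Col1a1 from at most 16 counts in an untreated library to 2.79, 2.47 and 0.812 CPM in WT + RA and 6.68, 2.69 and 5.45 CPM in KO + RA (adjusted p = 0.00101). Ptn, pleiotrophin, a heparin-binding growth factor (4.45 ± 0.33, adjusted p = 6.08e-05), tenascin C (Tnc, 3.90 ± 0.41, adjusted p = 0.000509) and the proteoglycan versican (Vcan, 2.82 ± 0.25, adjusted p = 0.00017) are matrix genes of neural as well as other tissues and rose too. Of 30 tested matrix genes 13 were called and apart and none was lower, with a median of 1.09 (0.62 in WT and 1.59 in KO) beside 0.06 for all genes. Without KO + RA replicate 3 they were 14 and 1 of 30.

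Markers of cell types other than neural cells moved with these genes. Of 13 tested mesenchymal markers 6 were called and apart (median 2.18, with 0.85 in WT and 3.71 in KO). The summed level of the list was 48.4 to 89.8 CPM in WT, 128 to 145 CPM in WT + RA, 55.4 to 63.0 CPM in KO and 138 to 440 CPM in KO + RA. Meox1, a paraxial mesoderm factor, had at most 2 counts per untreated library and was at 1.78, 2.52 and 1.10 CPM in WT + RA and 2.48, 0.341 and 0.892 CPM in KO + RA (adjusted p = 0.00261). Twist1, a defining mesenchymal factor, was at 17.3 to 54.7 CPM in all groups and was not called (0.22 ± 0.23, adjusted p = 0.575). Decorin (Dcn) was called (2.81 ± 0.72, adjusted p = 0.037) with 22.98, 12.7 and 345 CPM in KO + RA, so that replicate 3 held most of it.

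Among 10 tested neural crest genes 5 were higher and 1 lower (median 0.67). Tfap2b, a crest factor, went from at most 0.205 CPM in untreated cells to 3.99, 8.34 and 2.53 CPM in WT + RA and 6.95, 2.45 and 1.39 CPM in KO + RA (adjusted p = 0.0023). Snai2 (1.47 ± 0.30, adjusted p = 0.0132) and Ets1 (1.11 ± 0.17, adjusted p = 0.00353) rose by less, and Sox10, the marker of migrating crest, did not pass the filter. The endothelial list had 6 genes tested, of which Cd34 (adjusted p = 0.00406), Emcn (0.00688) and Tek (0.0216) were called and apart on the higher side. In WT, Cd34 was at or under the floor before and after RA and Emcn before it, and they reached at most 0.145 and 0.191 CPM, while KO + RA libraries held 2.89, 2.38 and 3.27 CPM of Cd34 and 0.677, 1.16 and 1.98 CPM of Emcn. The WT libraries thus show no rise of Cd34 above the floor. The list's summed level was 1.40 to 3.48 CPM in WT, 1.48 to 2.38 CPM in WT + RA, 1.21 to 2.43 CPM in KO and 10.2 to 14.6 CPM in KO + RA. Pecam1 and Kdr were not called, and Cdh5, Tie1, Cldn5 and Ptprc did not pass the filter. None of 9 tested endoderm genes was called and apart. Without KO + RA replicate 3 the higher and lower counts were 5 and 0 of 9 endothelial, 1 and 0 of 10 endoderm and 5 and 2 of 10 crest genes. Over all genes tested the shares were then 6.75% higher and 6.81% lower. In a list of skeletal muscle genes made after values were seen, 4 of 10 tested were higher (Mb, Mybpc1, Myog and Tecrl), while Myod1, Myf5 and Myf6 did not pass the filter. The part of other cell types in the higher genes was not tested.

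Genes of IGF signalling rose. Igf2, the fetal growth factor (ENSMUSG00000048583, GRCm39 chr7:142204503-142220694, minus strand), was at 7.96, 6.06 and 18.95 CPM in WT, 104, 138 and 87.0 CPM in WT + RA, 2.81, 2.40 and 2.37 CPM in KO and 292, 196 and 192 CPM in KO + RA (4.90 ± 0.32, adjusted p = 4.01e-05). Igfbp5, a binding protein of IGFs, went from at most 0.407 CPM to 18.7, 14.5 and 14.7 CPM in WT + RA and 26.5, 11.6 and 4.36 CPM in KO + RA (6.41 ± 0.48, adjusted p = 6.08e-05). Igf1 was among the largest changes (6.11 ± 0.99, adjusted p = 0.00457), yet its KO + RA libraries were at 6.32, 3.30 and 49.9 CPM and the effect was 5.09 without replicate 3. The abundant Igfbp2 (378 to 639 CPM before and 577 to 892 CPM after RA, 0.78 ± 0.20, adjusted p = 0.0323) and the receptor Igf2r (0.75 ± 0.20, adjusted p = 0.0383) rose less. With the GDNF receptor Gfra1 (2.27 ± 0.43, adjusted p = 0.00999) and neurotrophin 3 (Ntf3, 0 to 1.16 CPM before and 0.0481 to 5.10 CPM after RA, adjusted p = 0.0239) this made 7 of 19 tested genes, none lower (median 1.02). Ntf3 was at or under the floor in untreated WT. Its 0.0481 CPM lay in a WT + RA library, under the floors of that group (0.143 to 0.145 CPM). That library thus shows no rise of Ntf3 above the floor. Igf2os, on the opposite strand within Igf2, rose alike (4.32 ± 0.40), and since the use of strand in counting is not given in the sources used here, reads of the 2 genes cannot be told apart.

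Wnt and TGF-beta genes went in both directions. Rspo3, an amplifier of Wnt signals, went from 5.11, 4.21 and 6.20 CPM to 6.78, 10.2 and 7.36 CPM in WT and from 2.78, 3.67 and 2.76 CPM to 21.4, 22.7 and 29.6 CPM in KO (1.82 ± 0.18, adjusted p = 0.000391). Wnt1, of the dorsal midline, had 0 counts in all 6 untreated libraries and was at 0.385, 1.60 and 0.430 CPM in WT + RA and 0.813, 0.511 and 0.496 CPM in KO + RA, at least 7.26-fold higher in WT and at least 6.82-fold higher in KO than a floor of 3 counts per library (adjusted p = 0.00483). Wnt5a rose (1.49 ± 0.30, adjusted p = 0.0126). Wnt3, which induces the primitive streak, fell from 8.80, 7.36 and 12.8 CPM to 3.03, 2.72 and 2.05 CPM in WT and from 18.5, 20.4 and 15.05 CPM to 5.96, 3.34 and 1.88 CPM in KO (−2.07 ± 0.27, adjusted p = 0.00162). These 4 were the members of the Wnt list called and apart, of 28 tested. The higher and lower counts became 4 and 2 of 28 without KO + RA replicate 3.

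In the TGF-beta family 5 of 24 tested genes were higher and 3 lower. The 2 ligands TGF-beta 1 and TGF-beta 2 moved in opposite directions. Tgfb1 fell from 10.6, 13.1 and 9.77 CPM to 2.60, 2.67 and 2.58 CPM in WT and from 7.18, 6.46 and 10.9 CPM to 3.52, 1.77 and 2.08 CPM in KO (−1.91 ± 0.22, adjusted p = 0.000833). Tgfb2 rose from 3.06, 2.37 and 2.66 CPM to 3.32, 6.16 and 3.63 CPM in WT and from 2.26, 1.93 and 2.79 CPM to 18.1, 11.3 and 19.9 CPM in KO (1.76 ± 0.23, adjusted p = 0.00145). The BMP ligand Bmp2 rose (2.78 ± 0.42, adjusted p = 0.00343), as did Bmp4, Gdf11 and Inhbb, while the BMP target Msx1 fell (−2.33 ± 0.34, adjusted p = 0.00278). Of 11 listed Hedgehog genes tested the coreceptors Boc (2.26 ± 0.41, adjusted p = 0.00767) and Gas1 (2.45 ± 0.45, adjusted p = 0.00805) and the effector Gli2 (1.48 ± 0.37, adjusted p = 0.0323) rose. The call of Gli2 held in 7 of 19 alternative settings.

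Axon guidance receptors and ligands were found mainly on the higher side. Of 30 tested ephrin, Slit and netrin genes 8 were higher and 1 lower (median 0.77). Epha7 went from 2.36, 2.77 and 4.15 CPM to 6.83, 8.44 and 7.74 CPM in WT and from 4.42, 4.92 and 4.19 CPM to 24.8, 14.7 and 18.4 CPM in KO (1.70 ± 0.19, adjusted p = 0.000762). The netrin receptor Dcc had at most 1 count in any untreated library and was at 0.625, 1.12 and 0.860 CPM in WT + RA and 2.39, 1.19 and 0.793 CPM in KO + RA (adjusted p = 0.00101). Slit2 (2.12 ± 0.30, adjusted p = 0.00261) and Epha3 (4.29 ± 0.71, adjusted p = 0.00485) rose, and Epha1, an Eph receptor of epithelia, fell (−2.48 ± 0.43, adjusted p = 0.00615). Of 27 semaphorin genes 6 were higher and none lower (median 0.40, with −0.13 in WT and 0.70 in KO). The receptor Nrp1 led the 6 (0.237 to 0.322 CPM before and 0.865 to 3.96 CPM after RA, 2.76 ± 0.32, adjusted p = 0.000854). Plxna2 (adjusted p = 0.0071), Sema3d (0.00902), Sema6d (0.00946), Plxna4 (0.0109) and Sema3c were the others. The protocadherins Pcdh18 (1.97 ± 0.30, adjusted p = 0.00353) and Pcdh10 (2.43 ± 0.49, adjusted p = 0.0132) rose and Cdh12 fell (adjusted p = 0.0377), which held in 6 of 18 alternative settings. Once KO + RA replicate 3 was left out, the higher and lower counts were 11 and 2 of 30 ephrin, Slit and netrin genes, 7 and 1 of 27 semaphorin genes and 5 and 1 of 20 cadherins and protocadherins.

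**Figure D4:**
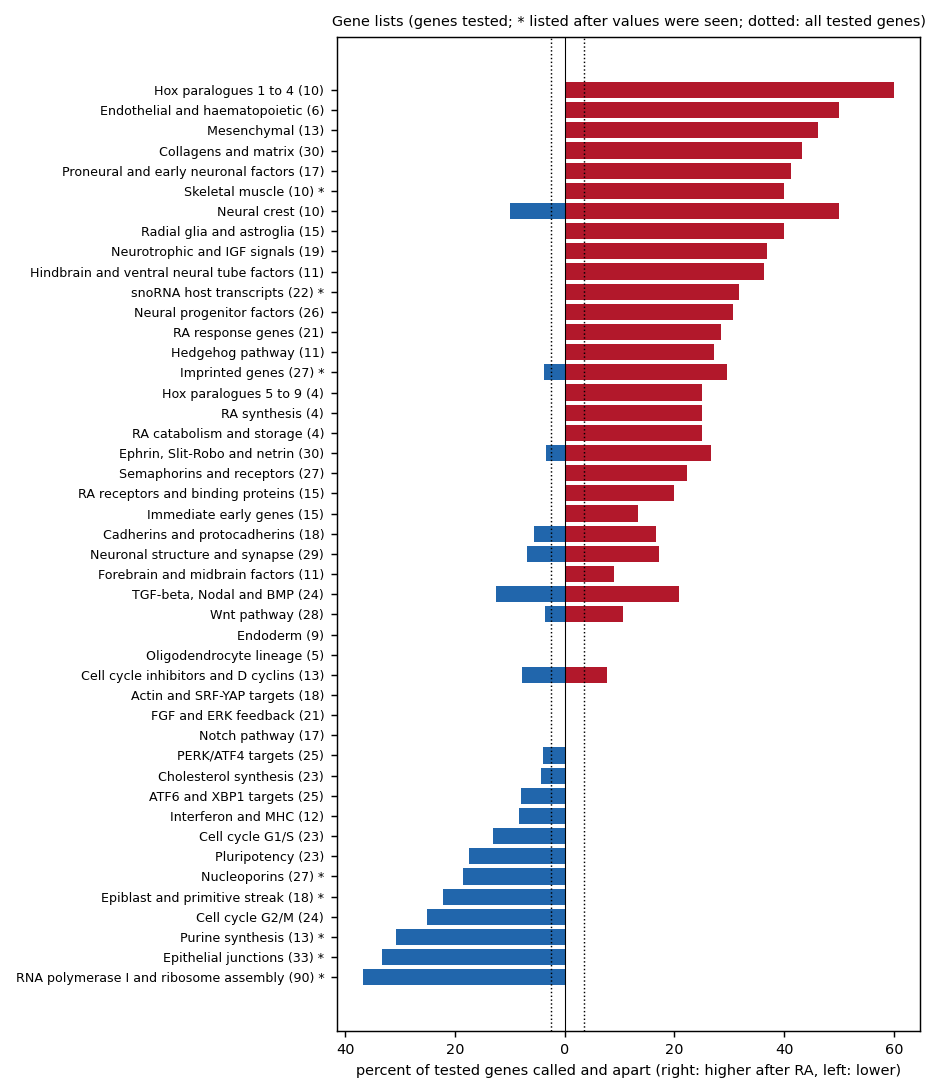
Percent of the tested genes of each list (number tested in parentheses) that were called and apart, higher after RA to the right and lower to the left. Dotted lines mark the share over all tested genes, 3.48% higher and 2.48% lower, and an asterisk marks lists made after values were seen. Hox, mesenchymal and matrix lists lie on the higher side and cell cycle, pluripotency, epithelial and ribosome assembly lists on the lower side.

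The genes that fell included factors of the early embryo. T (Brachyury), the T-box factor of the primitive streak (ENSMUSG00000062327, GRCm39 chr17:8653062-8661328, plus strand), was at 83.3, 67.9 and 72.5 CPM in WT and 38.3, 72.6 and 29.8 CPM in KO. After RA it was at 13.4, 22.99 and 13.3 CPM and 13.5, 8.04 and 7.93 CPM (−2.21 ± 0.27, adjusted p = 0.00101). Nodal, the TGF-beta ligand of the epiblast, fell from 64.0, 53.9 and 91.1 CPM to 47.3, 33.3 and 34.1 CPM in WT and from 76.5, 84.7 and 67.6 CPM to 23.2, 22.9 and 12.2 CPM in KO (−1.42 ± 0.21, adjusted p = 0.00298), and Foxh1, the factor through which Nodal acts, from 162, 110.0 and 106.7 CPM to 91.0, 80.8 and 87.7 CPM in WT and from 126, 104 and 138 CPM to 44.1, 52.9 and 32.01 CPM in KO (−1.03 ± 0.18, adjusted p = 0.00622). In a list of epiblast and streak genes made after values were seen, and so no support on its own, 4 of 18 tested were lower and none higher (median −0.68). Its summed level was 2354 to 3326 CPM in WT and 2831 to 4022 CPM in WT + RA, with overlap. In KO it was 2384 to 2915 CPM and in KO + RA 1594 to 2082 CPM.

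Lin28b, an RNA-binding protein that blocks the maturation of let-7 microRNAs (ENSMUSG00000063804, GRCm39 chr10:45252646-45362557, minus strand), fell from 19.2, 19.2 and 26.1 CPM to 6.73, 6.60 and 7.83 CPM in WT and from 18.7, 21.00 and 19.96 CPM to 11.8, 10.5 and 7.73 CPM in KO (−1.30 ± 0.16, adjusted p = 0.00101). Its relative Lin28a started at 291, 265 and 204.8 CPM in WT and 208, 192 and 232 CPM in KO and ended at 144, 120.2 and 154 CPM and 77.6, 81.0 and 21.3 CPM (−1.34 ± 0.29, adjusted p = 0.018). Trim71, a let-7 target that acts in the same pathway (−1.27 ± 0.28, adjusted p = 0.0209), and Dnmt3l, a cofactor of DNA methylation (−3.01 ± 0.45, adjusted p = 0.00324), fell too. Dnmt3l fell from 0.916, 1.03 and 0.793 CPM in WT and from 27.2, 17.03 and 19.2 CPM in KO, where it started higher. These were 4 of 23 tested pluripotency genes, and none was called and apart on the higher side. The median was −0.16, with −0.04 in WT and −0.41 in KO, and the shared effect was above 0 for 9 of the 23. The summed level of the list was 2612 to 4349 CPM in WT and 3392 to 4821 CPM in WT + RA, with overlap. In KO it was 3233 to 3581 CPM and in KO + RA 2069 to 2915 CPM. Without KO + RA replicate 3 the higher and lower counts were 1 and 5 of 23.

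Epithelial genes were another group with lower members. Spint1, an inhibitor of membrane proteases in epithelia, fell from 7.36, 6.65 and 11.2 CPM to 1.97, 1.02 and 2.58 CPM in WT and from 11.2, 8.92 and 7.37 CPM to 1.22, 0.886 and 0.396 CPM in KO (−2.79 ± 0.31, adjusted p = 0.000683). Cldn6, an embryonic claudin of tight junctions (−2.69 ± 0.36, adjusted p = 0.00187), and Dsg2, a desmosomal cadherin (−2.58 ± 0.36, adjusted p = 0.0024), fell as well, both from higher levels in KO than in WT. A list of 33 tested junction genes, made after values were seen, held 11 lower and no higher genes (0 and 12 of 34 without KO + RA replicate 3). Its median was −1.09, with −0.56 in WT and −1.53 in KO. Epcam and Cdh1, the best known members, were not called (−0.50 ± 0.20 and −1.09 ± 0.38). Others among the 10 lower genes with the smallest p were Pcolce2 (−1.89 ± 0.19, adjusted p = 0.000335), Tmem88 (−1.83 ± 0.20, 0.000529), Nkx2-4 (−2.60 ± 0.30, 0.0009), Pgap6 (−2.29 ± 0.28, 0.00101), Amot, an angiomotin of the Hippo pathway (−1.98 ± 0.24, 0.00101), and Noct (−1.52 ± 0.18, 0.00101). Alox15 (−2.81 ± 0.52, adjusted p = 0.00822) and Fetub (−2.51 ± 0.47, adjusted p = 0.00899) were among the 5 with the largest decrease.

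Some cell cycle genes fell by small amounts. Cdc20, the activator of the anaphase-promoting complex, went from 161, 158 and 167 CPM to 111, 96.7 and 95.2 CPM in WT and from 193, 161 and 163 CPM to 77.5, 78.7 and 51.4 CPM in KO (−0.9998 ± 0.15, adjusted p = 0.0035). Top2a (−0.83 ± 0.16, adjusted p = 0.00902), the mitotic kinase Aurka (−1.06 ± 0.21, adjusted p = 0.0109), Kif20a (−0.79 ± 0.16, adjusted p = 0.0117), Tpx2 (−0.59 ± 0.14, adjusted p = 0.0299) and Cenpe were the other members lower, 6 of 24 G2/M genes tested (median −0.38). Of 23 G1/S genes 3 were lower (median −0.27): Ccne1 (−1.31 ± 0.22, adjusted p = 0.00496), Cdc6 (−0.81 ± 0.19, 0.0274) and Slbp (−0.46 ± 0.12, 0.0443). None of either list was higher. The higher and lower counts became 0 and 11 of 24 G2/M genes and 2 and 8 of 23 G1/S genes without KO + RA replicate 3. The summed level of the G2/M list was 2550 to 2652 CPM in KO and 1674, 1794 and 3327 CPM in KO + RA. That of the G1/S list was 2034 to 2114 CPM in KO and 1594, 1697 and 2736 CPM in KO + RA. In both lists the sum in KO + RA replicate 3 lay above every other library.

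Cyclin D1 (Ccnd1) fell from 38.3, 35.9 and 13.3 CPM to 6.25, 8.002 and 8.12 CPM in WT and from 29.7, 23.8 and 26.9 CPM to 22.5, 12.1 and 14.5 CPM in KO (−1.34 ± 0.26, adjusted p = 0.0117). Gadd45g, which restrains the cycle at differentiation, rose from 0.704, 0.924 and 1.31 CPM to 3.46, 3.73 and 2.91 CPM in WT and from 0.498, 0.267 and 0.642 CPM to 8.35, 6.17 and 6.94 CPM in KO (2.84 ± 0.27, adjusted p = 0.000245). Jun (1.18 ± 0.20, adjusted p = 0.00583) and Mycn (0.75 ± 0.19, adjusted p = 0.0342), immediate early genes, rose, 2 of 15 tested in that list. The median of the list was 0.36, with −0.20 in WT and 0.59 in KO.

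Of all lists, ribosome assembly held the most genes that fell. The list, made after values were seen, holds RNA polymerase I subunits and nucleolar factors that process ribosomal RNA. Of 90 tested, 33 were called and apart on the lower side and none on the higher side, and the median was −0.42. Once KO + RA replicate 3 was left out, the higher and lower counts were 1 and 50 of 90. The summed level of the list was 14222 to 14994 CPM in WT, 12479 to 14172 CPM in WT + RA, 12924 to 14504 CPM in KO, 10092 and 10881 CPM in KO + RA replicates 1 and 2, and 42959 CPM in replicate 3, where the sum lay above every other library. Polr1b, the second subunit of RNA polymerase I, went from 28.6, 32.5 and 30.4 CPM to 14.2, 15.5 and 11.7 CPM in WT and from 24.9, 21.2 and 23.3 CPM to 11.4, 13.7 and 6.44 CPM in KO (−1.14 ± 0.18, adjusted p = 0.00442). Bop1 (−0.95 ± 0.14, adjusted p = 0.00295), Heatr1 (−1.21 ± 0.20, adjusted p = 0.00513) and the helicase Ddx21 (−0.92 ± 0.19, adjusted p = 0.0156) are further examples. Of 13 purine synthesis genes 4 were lower, among them Gart (−1.01 ± 0.19, adjusted p = 0.00902), and of 27 nucleoporins 5, with no higher member in either of these lists, both also made after values were seen. Leaving out KO + RA replicate 3, the higher and lower counts were 0 and 7 of 13 purine synthesis genes and 0 and 12 of 27 nucleoporins.

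Of 25 tested targets of the PERK/ATF4 branch 1 was called and apart, Shmt2 (−0.87 ± 0.23, adjusted p = 0.0423), which was lower, as were 2 of 25 ATF6 and XBP1 targets, the chaperones Dnajb11 (−0.57 ± 0.15, adjusted p = 0.035) and Hyou1 (−0.75 ± 0.20, adjusted p = 0.041). Leaving out KO + RA replicate 3, the higher and lower counts were 0 and 2 of 25 PERK/ATF4 targets and 0 and 5 of 25 ATF6 and XBP1 targets. Over all genes tested the lower share was 2.48% with all libraries and 6.81% without this one. The calls of Shmt2 and Hyou1 held in 8 of 19 alternative settings each and that of Dnajb11 in 9. The summed level of the ATF6 and XBP1 list was 3447 to 3664 CPM in KO and 3418, 2863 and 6033 CPM in KO + RA, highest in replicate 3. That of the PERK/ATF4 list was 1510 to 2434 CPM in WT and 1690 to 1885 CPM in WT + RA. In KO it was 2461 to 2534 CPM and in KO + RA 1440 to 1912 CPM, so that it overlapped in WT and not in KO. The median of the PERK/ATF4 list was −0.37, with −0.005 in WT and −0.73 in KO. Of 23 cholesterol synthesis genes Ebp was lower (40.4 to 53.6 CPM before and 13.2 to 32.8 CPM after RA, −1.15 ± 0.17, adjusted p = 0.00265), and of 12 interferon and MHC genes the immunoproteasome subunit Psmb9 (adjusted p = 0.0459, a call that held in 5 of 18 alternative settings). No member was called and apart in the Notch list (17 tested, 2 called higher with overlap), the FGF list (21 tested, 1 called higher and 2 lower with overlap) or the actin list (18 tested, 5 called higher with overlap). Leaving out KO + RA replicate 3, the higher and lower counts were 3 and 0 of 17 Notch, 2 and 0 of 21 FGF and 0 and 1 of 18 actin genes, beside 6.75% and 6.81% of all genes.

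Non-coding transcripts that host small RNAs were picked out after values were seen. Of 22 tested hosts of small nucleolar RNAs, which guide the modification of ribosomal RNA, 7 were higher and none lower (median 0.85). By genotype the median was 0.80 in WT and 1.10 in KO, and the KO median dropped to 0.09 when KO + RA replicate 3 was left out, where the higher and lower counts were 8 and 0 of 22. Gas5 went from 219, 237 and 189 CPM to 833, 709 and 752 CPM in WT and from 173, 274 and 201 CPM to 333, 371 and 1422 CPM in KO (1.77 ± 0.35, adjusted p = 0.0119). The KO effect of Gas5 was 1.71 with all libraries and 0.69 without replicate 3. Zfas1 went from 54.2, 72.9 and 106 CPM to 426, 403 and 344 CPM in WT and from 61.1, 81.4 and 53.8 CPM to 120.1, 132 and 313 CPM in KO (1.93 ± 0.28, adjusted p = 0.0028). Of 27 tested imprinted genes 8 were higher and 1 lower (median 0.57). Beside Igf2 they were H19 (2.20 ± 0.31, adjusted p = 0.00221), Igf2r, Ndn, Sgce and 3 genes of the Dlk1-Dio3 domain, Rian, Mirg and Rtl1, and the lower one was Phlda2. In KO + RA, Mirg was at 0.542, 0.204 and 5.85 CPM and Rian at 0.316, 0.273 and 1.39 CPM, highest in replicate 3. In KO alone edgeR called neither Mirg nor Rian, with all libraries (adjusted p = 0.0646 and 0.0907) or without replicate 3 (0.158 and 0.214). Rtl1 was called in KO both ways (0.0323 and 0.0117).

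Other non-coding transcripts that rose host microRNAs. A microRNA pairs with targets mainly through its seed, bases 2 to 8, and those with the same seed tend to share targets. Well-studied microRNAs of the higher hosts are shown (RefSeq, GRCm38.p6) to set the shared seeds beside each other, grouped by seed, 5′ to 3′ with the seed in capitals.
miR-100-5p (Mir100hg): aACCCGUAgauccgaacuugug
miR-99a-5p (Mir99ahg): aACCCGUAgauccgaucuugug
miR-125b-5p (Mir100hg and Mir99ahg): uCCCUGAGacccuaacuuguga
miR-351-5p (C430049B03Rik): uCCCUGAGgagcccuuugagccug
let-7c-5p (Mir99ahg): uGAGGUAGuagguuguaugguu
miR-322-5p (C430049B03Rik): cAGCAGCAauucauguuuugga
miR-503-5p (C430049B03Rik): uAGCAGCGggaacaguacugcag
miR-214-3p (Dnm3os): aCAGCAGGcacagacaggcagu
miR-9-5p (C130071C03Rik): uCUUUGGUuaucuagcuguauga
The first pair shares a seed, as does the next pair, and in both pairs the hosts lie on different chromosomes. Mir100hg went from 0.106, 0.628 and 0.488 CPM to 5.82, 7.86 and 4.83 CPM in WT and from 0.205, 0.415 and 0.251 CPM to 14.5, 8.52 and 7.14 CPM in KO (4.50 ± 0.40, adjusted p = 0.000191). Mir99ahg, built like it with a let-7 and a miR-125b gene, went from 0.493, 0.259 and 0.275 CPM to 2.40, 2.52 and 2.82 CPM in WT and from at most 2 counts per library in KO to 4.51, 2.21 and 13.9 CPM in KO + RA (adjusted p = 0.000766). C430049B03Rik rose by 4.28 ± 0.47 (adjusted p = 0.000563) and C130071C03Rik, host of a miR-9 gene active in neural progenitors, by 1.40 ± 0.28 (adjusted p = 0.0126). Dnm3os had 0 counts in all untreated libraries and was at 1.49, 0.242 and 0.382 CPM in WT + RA and 1.40, 0.443 and 0.297 CPM in KO + RA (adjusted p = 0.0094).

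These counts measure the host transcript and not the mature microRNA, which mRNA libraries do not hold. Igf2bp1, a known let-7 target named after its values were seen, was lower, from 173, 187.7 and 170.4 CPM to 77.7, 83.0 and 70.6 CPM in WT and from 149.7, 108.7 and 146 CPM to 86.3, 83.5 and 33.4 CPM in KO (−1.10 ± 0.23, adjusted p = 0.015), while Mycn, also a known target, was higher as given above. No list of let-7 targets was counted. Whether the microRNAs took part was not tested. Dnm3os is antisense to Dnm3, and the same limit on strand applies as for Igf2os.

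Among the 985 genes, whose common direction the rule fixed, the fitted effects were more often larger in KO than in WT. Over the 575 higher genes the median log2 fold change was 1.47 in WT and 2.44 in KO, and over the 410 lower genes −0.74 and −0.93. The fitted effect was larger in size in KO for 745 of the 985, and for 650 without KO + RA replicate 3, where the medians were 1.48 in WT and 2.35 in KO for the higher and −0.74 and −0.78 for the lower genes. Over all genes tested with all 12 libraries the medians were −0.008 in WT and 0.11 in KO. How often the KO effect was larger over all genes was not counted, so these counts show no trait particular to the 985. No gene passed the test of the difference between the 2 effects in edgeR with all libraries (0 of 16502, 1423 at an unadjusted p under 0.05, of which 167 among the 985, smallest adjusted p = 0.0825). DESeq2 called 309 and limma-voom with quality weights 985 of all genes tested. Without KO + RA replicate 3 edgeR called 232 of 17327, 139 with a higher value in KO (0.802%) and 93 with a lower one (0.537%). Among these were 38 of the 985 genes, and in 35 of the 38 the effect was larger in size in KO. The 139 and 93 count the sign of the difference and not the size of the effects. How often the effect was larger in size in KO over all 232 was not counted, so the 35 show no trait particular to the 985.

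Cdh11 was one of the 38, with a difference between the KO and WT effects of 2.76 on the log2 scale without that library and 2.57 with all 12 (adjusted p = 0.107 with all 12). Given in the same order, others were Gxylt2, a xylosyltransferase that acts on Notch (3.44 and 3.48, adjusted p = 0.0824), Ptn (3.45 and 3.84, adjusted p = 0.0858), Vcan (2.90 and 3.15, adjusted p = 0.0824), Rspo3 (2.18 and 2.34, adjusted p = 0.0824) and Igf2 (3.26 and 3.16, adjusted p = 0.13). These 6 genes had lower means in KO than in WT before RA and higher means after it. The snoRNA host Snhg1 was one of the 3 with the larger effect in WT (−0.83 and 0.78, adjusted p = 0.795).

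Taken by genotype, edgeR called 53 genes higher (0.321%) and 14 lower (0.0848%) in WT, and 642 higher (3.89%) and 262 lower (1.59%) in KO. Leaving out KO + RA replicate 3, it called 979 (5.65%) and 889 (5.13%) in WT and 1469 (8.48%) and 1307 (7.54%) in KO. Of the 67 called in WT, 54 were apart in the same direction in KO and 3 in the opposite direction, where 30.2% of all tested genes were apart in KO in either direction. Of the 904 called in KO, 545 were apart in the same direction in WT and 18 in the opposite one, where 29.1% of all genes were apart in WT. In 146 genes (0.885%) both genotypes were apart but moved in opposite directions. When KO + RA replicate 3 was left out, 54.8% of genes were apart in KO, which then had 2 RA libraries, 28.5% in WT, and 2.91% in both in opposite directions. Across all 16502 genes the Spearman correlation of the 2 fold changes, which rest on separate libraries but on shared scaling, was 0.397, and 0.353 without KO + RA replicate 3.

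A few genes owed much of their size to KO + RA replicate 3. Nts, neurotensin, was at 2.48, 2.28 and 92.0 CPM in KO + RA and 0.0961, 0.194 and 0.0955 CPM in WT + RA, from at most 1 count per untreated library (adjusted p = 0.0306), and its call held in 7 of 17 alternative settings. Tmsb4x, thymosin beta 4, which binds actin monomers, was at 43.1, 67.8 and 30.6 CPM in WT, 151, 187.5 and 154.7 CPM in WT + RA, 27.98, 31.7 and 28.5 CPM in KO and 377, 290.0 and 9728 CPM in KO + RA. It was named after its values were seen. Its shared effect was 4.34 ± 0.81 with that library and 2.65 without it, and it met the rule either way. The plot of the effect with and without this library holds only genes called and apart with all libraries. Their choice already required this library to lie on the same side as the other KO + RA libraries. The plot therefore cannot show how much the library mattered for genes at large. Over all genes tested, the shared effect was called for 895 higher and 515 lower genes with it, and for 2059 and 2053 without it.

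**Figure D5:**
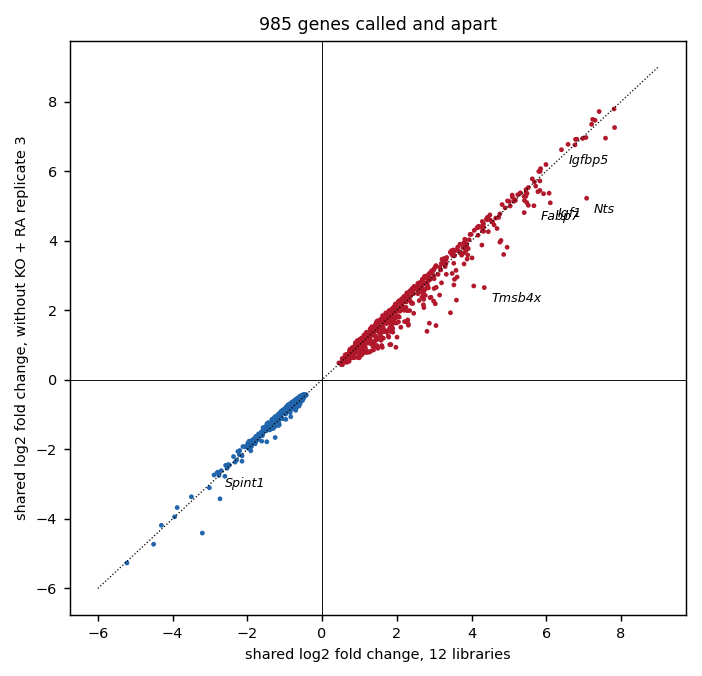
Shared log2 fold change of the 985 genes called and apart, with all 12 libraries (horizontal axis) and without KO + RA replicate 3 (vertical axis), red for higher and blue for lower genes, with a dotted line at equal values. All points keep their sign, as the choice of these genes made likely. Nts, Igf1, Fabp7 and Tmsb4x lie below the line, with smaller effects once the library is left out.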

How the data were processed

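Per the labels and the study's methods, mRNA libraries of NE-4C cells (12 libraries, 3 passages per group) were sequenced as paired ends and the authors mapped and quantified them with nf-core/rnaseq defaults, which use STAR and Salmon, against GRCm39. The submitters' processing notes also name DESeq2. The authors deposited estimated counts (expected counts) per gene, labelled as scaled. This points to counts made from TPM and so corrected for length, but the setting is not given in the sources used here.

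Rounded counts went into edgeR 4.0.16 (R 4.3.3), with filterByExpr, TMM factors, 1 coefficient per group in a model of all 12 libraries, robust quasi-likelihood tests and Benjamini-Hochberg adjustment over the 16502 genes tested. The shared effect was ((WT + RA − WT) + (KO + RA − KO))/2. A call needed an adjusted p below 0.05 and no minimum fold. SEs come from the log2 fold change and the F statistic. "Apart" means no overlap of CPM between treated and untreated libraries. Genes that failed the filter were not assessed. Passages are the replicates, so p-values measure the spread between passages, with 1 line per genotype as the study describes them.

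On simulated counts for the 16502 genes, with 200 genes changed, the shared effect in 12 libraries was recovered for 28% of genes changed 2-fold, 82% changed 4-fold, 96% changed 8-fold and 98% changed 16-fold. Without KO + RA replicate 3 the shares were 56%, 84%, 90% and 92%. Unchanged genes called numbered 5 and 2. The simulated libraries had no difference between genotypes and none that stood apart as KO + RA replicate 3 did, so recovery in the real libraries can differ.

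Named genes were the 10 higher and 10 lower with the smallest p, the 5 with the largest change at a mean of at least 5 CPM in each direction, up to 5 per list called and apart, and 9 fixed genes. A few genes that these rules or lists would name are not reported here and were left out of the lists. Other names are list members or were chosen after values were seen. The members, 37 of the lists and the tests were chosen with earlier results of these data known, and 8 further lists after these values were seen. Gene positions are from GENCODE (GRCm39), promoters and microRNAs from RefSeq (GRCm38.p6), matched by symbol: 11073 of the tested genes had a promoter. The coordinates of the 2 builds were kept apart. Same-numbered libraries of different groups did not vary together (correlations −0.238 to 0.0957 over 18 pairs), so the numbers were not used to pair them. Alternatives were DESeq2 1.42.0, its size factors in edgeR, 2 other filters, limma-voom 3.58.1 with quality weights, the replicate number as a block, an additive model, CPM without TMM factors (its edgeR fit was added after seeing the data) and each library left out. Floors cover counting error only, while SEs also hold the spread between passages. Figures used matplotlib 3.10.9.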

Additional observations from a re-analysis of the deposited data

Results flagged for a closer look

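Nes, which encodes the progenitor filament nestin, moved in opposite directions in the 2 genotypes and so was no member of the shared response. It was at 41.5, 45.6 and 60.5 CPM in WT and 34.1, 39.9 and 40.9 CPM in WT + RA, where every RA library lay below every untreated one, and at 34.98, 31.2 and 37.2 CPM in KO and 64.2, 56.2 and 75.03 CPM in KO + RA, where every RA library lay above. The effect in KO exceeded that in WT by 1.28 on the log2 scale (edgeR adjusted p = 0.286 for the difference). This misses the threshold, so the difference is given as values only. The shared effect was 0.28 ± 0.15 (SE, adjusted p = 0.246).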

How the results depend on the processing

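The number of genes depended on the variance model and on single libraries. Under each alternative none of the 985 genes that was tested changed the sign of its shared effect, CPM without TMM factors included (674 of them were tested with at least 10 counts in every library, and all elsewhere). These genes were chosen by their direction in the same libraries, so a change of sign was unlikely from the start. Their constant sign is therefore no evidence of its own. The shared effect was called for 895 higher and 515 lower genes, which became 1786 and 1377 with DESeq2 and 3032 and 2766 with limma-voom. Lower genes were 270 without a filter and 343 with at least 10 counts in every library. Called and apart were 575 and 410, which became 824 lower with DESeq2, 930 lower with limma-voom, 230 lower without a filter and 368 higher with at least 10 counts in every library. WT called 67 and KO 904 genes, which became 924 and 2632 with DESeq2, 3562 and 4531 with limma-voom, 43 and 583 without a filter, and 36 in WT with at least 10 counts in every library. The difference between genotypes went from 0 to 309 with DESeq2 and 985 with limma-voom.

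CPM without TMM factors moved the median shared log2 fold change of all genes from 0.06 to −0.21 and the genes apart from 748 higher and 983 lower to 323 and 1505. The edgeR fit on such CPM, added after seeing the data, called 242 higher and 104 lower genes in the shared effect, 169 and 98 of them apart, 0 in WT, 140 in KO and 0 for the difference, and 284 of the 985 genes. With 1 library left out, the shared effect was called for 469 to 2059 higher and 203 to 2053 lower genes, 390 to 1170 higher and 186 to 1180 lower were also apart, and 846 to 1324 and 1057 to 1557 were apart. WT called 0 to 1868 genes, KO 194 to 2776 and the difference 0 to 232. The highest values are those without KO + RA replicate 3, except 1557, which is without WT replicate 3 (1193 higher apart). The called lower genes were 203 to 278 without any 1 library of WT + RA, any 1 of untreated KO, or replicate 1 or 2 of WT, and WT called 0 genes without WT replicate 1. The cause was not tested.

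With the replicate number as a block, although no pair of libraries was correlated by over 0.1 and 1 of 12 correlated best with its own number, the shared effect was called for 605 higher and 302 lower genes, 441 and 252 of them apart, with 10 called in WT, 467 in KO and 0 for the difference. The share of promoters with a repeat was 0.368% for the higher and 0.251% for the lower genes with the 5-base spacing alone. Depth limits the genes at the floor, whose size is unknown.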
